A study of Homo sapiens with 2 samples.

Results

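The transcription factor MYC pairs with MAX through a helix-loop-helix and leucine zipper domain, and the pair prefers the E-box hexamer CACGTG and its near variants. The genes described here are 9 genes of pre-mRNA splicing and protein arginine methylation: PRMT1, PRMT5, SRSF1, SRSF2, SRSF3, SRSF7, HNRNPA1, HNRNPA2B1 and PTBP1. They were chosen by name, with earlier results of these data known. A peak was assigned to a gene when its summit lay within 5 kb of the gene's start site in GRCh37. By this rule the 9 genes held 21 of the 17659 MYC peaks in the list, and each gene held at least 1.

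Splicing is carried out by the spliceosome, and the choice of exons is set in large part by RNA-binding proteins. SR proteins (the SRSF genes) bind exonic enhancers and mostly favour inclusion of an exon, whereas hnRNP proteins and PTBP1 often act as silencers. Many of these proteins carry arginine-rich stretches that are methylated by PRMT1, the main enzyme for asymmetric dimethylarginine, and by PRMT5, which makes symmetric dimethylarginine. PRMT5 also methylates Sm proteins during assembly of the spliceosomal snRNPs. In other tumour cells, PRMT5, SRSF1, PTBP1, HNRNPA1 and HNRNPA2B1 have been described as genes that MYC activates.

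Binding was profiled by ChIP-seq in 1 MYC library, with 1 library of input chromatin beside it. Both came from SH-EP/TET21/N (TET21) cells that express full-length, wild-type MYC ectopically and had been treated with doxycycline at 1 µg/mL for 7 days. TET21 was cloned from SH-EP, a human neuroblastoma line, and its MYCN transgene is switched off by doxycycline. The antibody was a rabbit polyclonal made in the submitters' laboratory, and the labels do not say whether it separates ectopic from endogenous MYC. The input enters only through the local background that the authors' peak caller used. With 1 library of each kind there is no replicate error, no difference between genes was tested, and the intervals below cover counting error only. The labelled cell type cannot be checked against marker expression in a peak list, and transcript levels were not analysed here.

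The promoter sequences of 5 of the genes are shown because they belong to the gene with the highest fold (PRMT1) or hold a hexamer close to the E-box (the other 4). They are RefSeq windows of 300 bases on GRCh38.p14, from 250 bases before the annotated start, and are written 5′ to 3′ on the strand of the gene. Capitals mark each match to CACGTG, to CACGCG or to CATGTG. Both strands were searched, so a match may read CGCGTG for the second hexamer and, for the third, CACATG. PRMT1 has none. Regions are chr19:49677021-49677320 on the plus strand for PRMT1, chr17:58007197-58007496 on the minus strand for SRSF1 and chr6:36594112-36594411 on the plus strand for SRSF3. They are chr2:38751312-38751611 on the minus strand for SRSF7 and chr19:797734-798033 on the plus strand for PTBP1. The PTBP1 window shown is that of its downstream annotated start.
PRMT1: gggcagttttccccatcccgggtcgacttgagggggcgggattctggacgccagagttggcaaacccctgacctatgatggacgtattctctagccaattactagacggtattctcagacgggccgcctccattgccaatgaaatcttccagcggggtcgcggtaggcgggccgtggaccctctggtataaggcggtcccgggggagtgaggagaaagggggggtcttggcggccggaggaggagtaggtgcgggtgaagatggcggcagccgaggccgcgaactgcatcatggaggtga
SRSF1: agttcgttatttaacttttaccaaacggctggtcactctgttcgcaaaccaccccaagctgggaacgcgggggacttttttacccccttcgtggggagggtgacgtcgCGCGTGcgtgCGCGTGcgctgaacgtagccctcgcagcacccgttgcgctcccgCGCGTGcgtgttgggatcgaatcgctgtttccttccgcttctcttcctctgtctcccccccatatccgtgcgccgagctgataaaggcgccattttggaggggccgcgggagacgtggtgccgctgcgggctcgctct
SRSF3: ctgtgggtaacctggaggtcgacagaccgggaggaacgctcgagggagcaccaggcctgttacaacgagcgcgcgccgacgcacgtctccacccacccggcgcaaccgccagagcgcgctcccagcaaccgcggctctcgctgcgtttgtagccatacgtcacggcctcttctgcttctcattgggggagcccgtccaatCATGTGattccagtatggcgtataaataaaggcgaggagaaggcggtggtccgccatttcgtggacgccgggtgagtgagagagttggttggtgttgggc
SRSF7: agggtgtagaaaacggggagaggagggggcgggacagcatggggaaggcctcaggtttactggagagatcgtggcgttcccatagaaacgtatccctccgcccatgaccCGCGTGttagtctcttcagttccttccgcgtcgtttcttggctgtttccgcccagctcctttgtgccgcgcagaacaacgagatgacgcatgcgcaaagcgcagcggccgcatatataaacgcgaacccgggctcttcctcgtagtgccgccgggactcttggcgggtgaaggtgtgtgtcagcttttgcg
PTBP1: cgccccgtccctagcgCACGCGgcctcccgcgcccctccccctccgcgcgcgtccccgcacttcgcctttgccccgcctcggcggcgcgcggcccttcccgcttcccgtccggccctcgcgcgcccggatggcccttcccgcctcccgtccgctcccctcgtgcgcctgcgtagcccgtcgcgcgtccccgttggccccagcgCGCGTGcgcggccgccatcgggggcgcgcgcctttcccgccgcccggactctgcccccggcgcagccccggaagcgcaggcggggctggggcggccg

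RefSeq windows were at hand for 7 of the 9 genes, 9 windows in all, since SRSF7 and PTBP1 have more than 1 annotated start. SRSF2 and HNRNPA1 were not matched. No window of these 7 genes held the canonical E-box CACGTG, a palindrome that reads alike on both strands. Among all 35116 RefSeq windows 7.26% held it, and among windows of coding genes 8.34%. CACGCG was found in 4 of the 9 windows, in SRSF1, SRSF7 and PTBP1, a share of 44.4% against 14.3% of windows of coding genes and 11.4% of all windows. By gene this was 3 of 7, against 13 of 48 (27.1%) among other splicing factor and arginine methyltransferase genes. The share was 18.1% among coding genes and 13.5% among all genes. SRSF1 held 3 copies, which began 142, 132 and 88 bases before the annotated start. PTBP1 held 2, in the window of its downstream start, whereas the window of its upstream start held none of the marked hexamers. Both windows of SRSF7 held the same copy because they overlap. CATGTG was found in 1 window, that of SRSF3, where it began 50 bases before the start. Its share was 8.93% among windows of coding genes and 11.1% among all windows. Any hexamer of the form CANNTG, which includes CACGTG and CATGTG but not CACGCG, was present in 2 of the 9 windows. Such a hexamer was present in 65.1% of windows of coding genes and in 68.7% of all windows.

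The hexamer CACGCG contains 2 CG dinucleotides, and these 9 windows held a median of 29, against 21 in windows of coding genes and 14 in all windows. Of 51 other splicing factor and arginine methyltransferase genes, 48 had RefSeq windows, with a median of 28 CG dinucleotides and CACGCG in 24.6% of their 69 windows. The part of CG content in the share of windows with CACGCG was not tested. CACGTG occurred in 6 of these 48 genes (12.5%), against 10.9% of coding genes and 8.77% of all 27305 genes. Those 6 were PRMT3, a cytosolic arginine methyltransferase, WDR77, the partner subunit of PRMT5, SF3B1, a core subunit of the U2 snRNP, and HNRNPA3, HNRNPD and HNRNPM. The start sites in the peak list's build and those of RefSeq were not aligned here, so no match is placed under a summit, and the binding of these 48 genes was not analysed.

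All 9 genes had a MYC summit within 5 kb of the start, and all 9 still had one within 1 kb. For scale, 4.64% of the 293307 windows of 10 kb along chromosomes 1 to 22 and X held a summit. Such windows are mostly not promoters, and the share of all promoters bound was not computed, so the count says nothing particular to these genes. The number of peaks differed between them. SRSF1, SRSF2, HNRNPA1, HNRNPA2B1 and PTBP1 had 3 peaks each, PRMT5 and SRSF7 had 2, and PRMT1 and SRSF3 had 1. The map of peaks around the 9 start sites shows that 17 of the 21 summits lay within 1 kb and 20 within 2 kb.

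**Figure D1:**
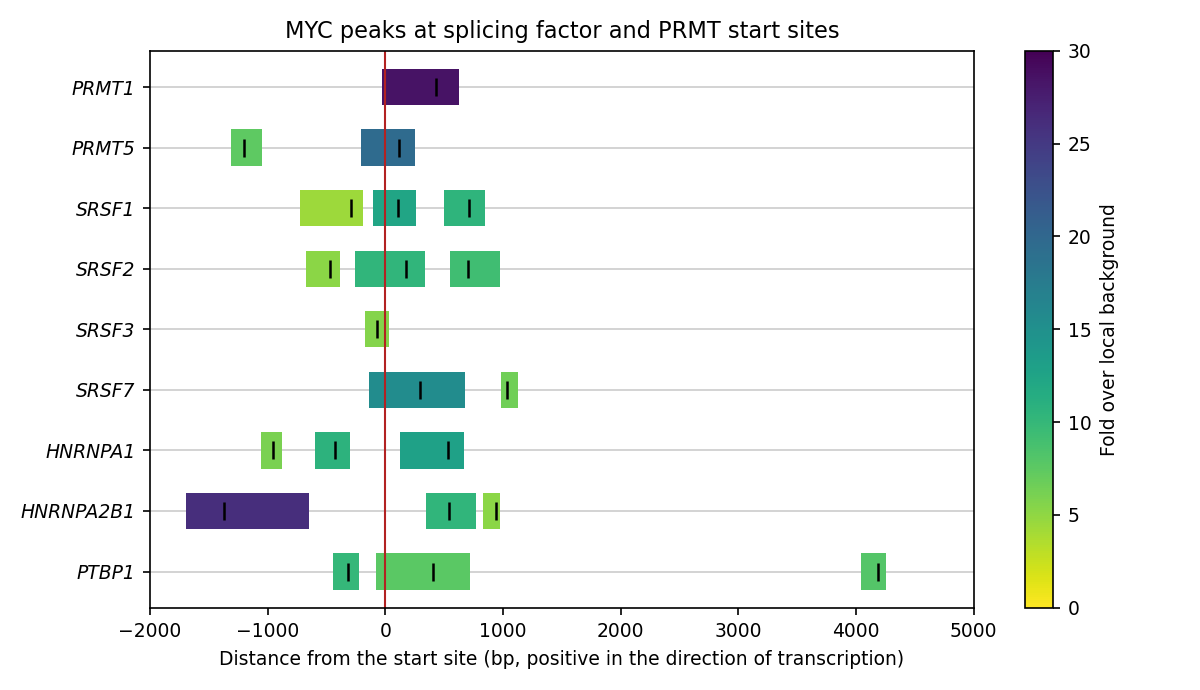
MYC peaks around the start site (red line) of each gene, by distance in bp with the direction of transcription to the right. Boxes span the peaks, black ticks mark summits and colour gives the fold over local background, from 4.36 to 28.56. The start site lay inside a peak in 7 of the 9 genes, and summits lay on both sides of it in 6.

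Peaks at these genes were on the median higher and wider than those of the whole list. That list is not limited to peaks near start sites, and the same values over promoter peaks alone were not computed. The fold, which is the pileup plus 1 over the background plus 1, had a median of 10.05 at the 21 peaks, against 6.4 over all 17659 peaks. In all, 11 of the 21 peaks (52.4%), from 8 of the 9 genes, reached a fold of at least 10, against 15.4% of all peaks. The pileup, which counts the ChIP fragments that overlap a summit, had a median of 24 at these peaks against 13 in the whole list. Their width was also larger, with a median of 369 bp against 226 bp, and 7 of 21 (33.3%) were wider than 500 bp against 6.82% of all peaks. The lower end of the list was represented too, since 5 of the 21 peaks had a fold below the list's median.

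**Figure D2:**
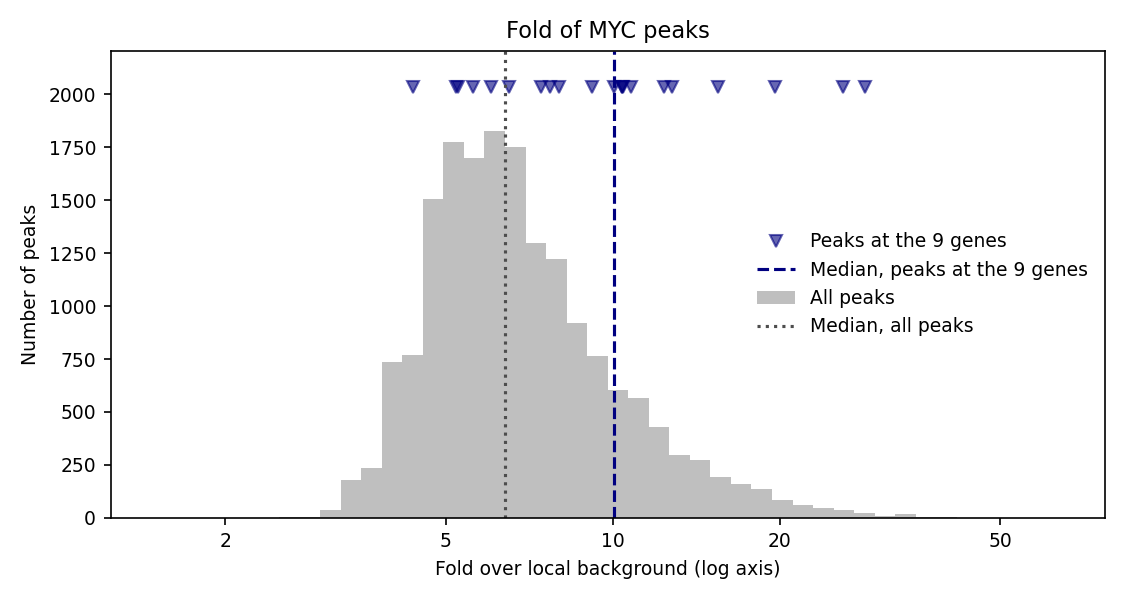
Fold over local background of the 21 peaks at the 9 genes (triangles, placed above the bars) and of all 17659 peaks (grey histogram, log axis). The dashed line marks the median of the 9 genes' peaks, 10.05, and the dotted line that of all peaks, 6.4.

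PRMT1 had the highest fold of the group. Its only peak ran from 50180383 to 50181035 on chromosome 19, a width of 653 bp, and covered the start site at 50180409. The summit lay 429 bp downstream, in the direction of transcription. There, 57 fragments (95% Poisson interval 43.2 to 73.9) stood over an expected background of 1.03. The fold was 28.56, with a −log10 p of 78.05. By fold the peak ranked 45 in the whole list. The next peak was 12.54 kb upstream, so the PRMT1 peak stood alone.

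PRMT5, the main symmetric arginine methyltransferase, was bound at its start site on chromosome 14. The stronger peak, 23398410 to 23398865, covered the start at 23398661 with a summit 113 bp downstream. It held 37 fragments (26.1 to 51.0) where 0.937 were expected, and its fold of 19.62 ranked 268 in the list. A weaker peak at 23399709 to 23399973 had its summit 1202 bp upstream, with 12 fragments (6.2 to 21.0) and a fold of 7.43. The intervals of the 2 pileups do not overlap. The weaker peak lies on the side of PRMT5-DT, a noncoding gene that RefSeq places head to head with PRMT5, so position alone does not assign it to either gene. The pileups of the PRMT1 peak and the stronger PRMT5 peak have overlapping intervals.

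The 4 SR protein genes ranged from 1 weak peak at SRSF3 to 3 peaks across the starts of SRSF1 and SRSF2. SRSF1, the founding SR protein, lies on chromosome 17 with its start at 56084707. Its peak over the start, 56084448 to 56084816, had a summit 106 bp downstream, 30 fragments (20.2 to 42.8) and a fold of 12.4. A second peak, 709 bp downstream at 56083863 to 56084210, had more fragments, 37 (26.1 to 51.0), but a lower fold of 10.44. The background there was 2.64, the highest value among the 21 peaks and shared with 1 peak of SRSF2, against 1.5 at the peak over the start. The third, 290 bp upstream, had 12 fragments (6.2 to 21.0) and a fold of 4.36, the lowest of the 21 peaks. These 3 peaks were separated by gaps of 237 and 76 bp.

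SRSF2, whose product binds exonic enhancers, lies further along chromosome 17 with its start at 74733493. The peak over the start, 74733158 to 74733750, had a summit 176 bp downstream, 25 fragments (16.2 to 36.9) and a fold of 10.4. A peak 702 bp downstream held 21 fragments (13.0 to 32.1), a fold of 9.18, and one 470 bp upstream held 18 (10.7 to 28.4), a fold of 5.22. All 3 intervals overlap, and the pileups of SRSF2 were not tested against each other, so no order is given to them. The lower fold of the upstream peak goes with a background of 2.64, against 1.5 over the start and 1.4 downstream. MFSD11, a gene on the opposite strand, begins within SRSF2 in RefSeq, so these peaks lie near the starts of both genes.

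SRSF7, which takes part in splicing and in export of mRNA, showed a wide peak of 811 bp on chromosome 2 from 38977963 to 38978773 across its start at 38978636. Its summit lay 295 bp downstream with 29 fragments (19.4 to 41.6) where 0.937 were expected, a fold of 15.49, the highest of the SR genes. A peak of 149 bp with its summit 1036 bp downstream had 11 fragments (5.5 to 19.7), a fold of 6.51, and the intervals of the 2 pileups overlap slightly. SRSF3, which controls splicing of many transcripts including its own, had the lowest best peak of the 9 genes by fold and by pileup. Its only peak, 36561915 to 36562121 on chromosome 6, covered the start at 36562090 with a summit 68 bp upstream, the closest of all summits to a start. It held 13 fragments (6.9 to 22.2), equal to the median pileup of the whole list, over a background of 1.5, and 32.8% of the list had a fold below its 5.6. That interval overlaps those of the best peaks of SRSF2, SRSF7, HNRNPA1 and PTBP1. SRSF3 is the gene whose RefSeq window, printed above, holds CATGTG.

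HNRNPA2B1 had the peak with the highest pileup and the highest −log10 p of the group, but away from the start. It spans 26241062 to 26242110 on chromosome 7, a width of 1049 bp, with its summit 1371 bp upstream of the start at 26240413. It held 65 fragments (50.2 to 82.8) over a background of 1.54. Its fold was 26.02, and its −log10 p of 81.08 ranked 45 in the list. CBX3, which encodes a heterochromatin protein, is transcribed away from HNRNPA2B1 on that side, so position alone does not assign the peak to either gene. Without it, HNRNPA2B1 keeps a peak 537 bp downstream with 25 fragments (16.2 to 36.9) and a fold of 10.4, and a peak of 142 bp 944 bp downstream with 12 fragments and a fold of 5.26. The start site of HNRNPA2B1 was not inside a peak, and its nearest peak edge was 343 bp away.

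HNRNPA1, an abundant silencer of splicing that acts with HNRNPA2B1 on PKM transcripts, had peaks on both sides of its start at 54674488 on chromosome 12. The downstream peak, 54674610 to 54675160, had its summit 531 bp away with 25 fragments (16.2 to 36.9) and a fold of 12.8. Upstream, summits at 424 and 953 bp had 24 fragments (15.4 to 35.7) with a fold of 10.78 and 13 fragments (6.9 to 22.2) with a fold of 6.03. The intervals overlap among all 3. The start itself was not inside a peak, with the nearest edge 122 bp downstream. CBX5, another gene of the heterochromatin protein family, lies head to head with HNRNPA1, as CBX3 does with HNRNPA2B1. The upstream peaks lie on the side of CBX5, so position alone does not assign them to HNRNPA1 or to CBX5.

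PTBP1, the polypyrimidine tract binding protein, which represses exons in many cell types, had 3 peaks on chromosome 19. The upstream peak, 796948 to 797169, had its summit 316 bp before the start at 797392, with 26 fragments (17.0 to 38.1) and a fold of 10.05. The peak over the start, 797312 to 798111, was 800 bp wide with a summit 404 bp downstream, 22 fragments (13.8 to 33.3) and a fold of 7.72. The third, 4182 bp downstream, held 14 fragments (7.7 to 23.5) where 0.872 were expected, a fold of 8.01. It is the summit farthest from a start among the 21, and the intervals of all 3 pileups overlap.

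**Figure D3:**
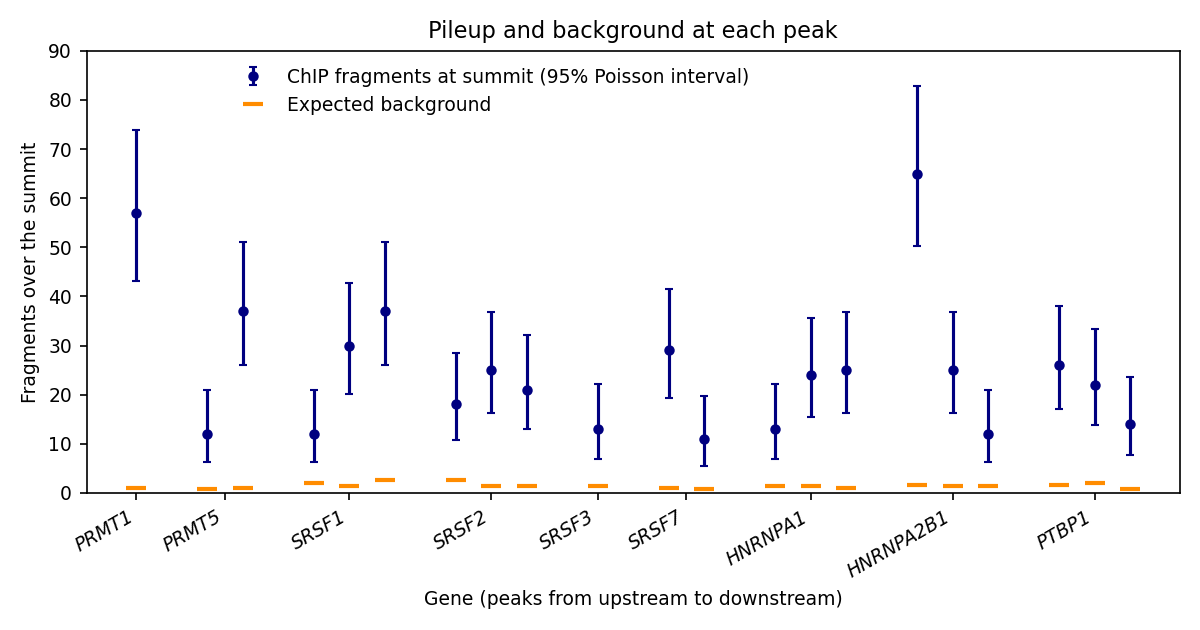
ChIP fragments over the summit of each of the 21 peaks (points, with 95% Poisson intervals for counting error) and the expected background (orange dashes), by gene and from upstream to downstream. HNRNPA2B1 reached 65 fragments, at its upstream peak on the side of CBX3, and PRMT1 57, whereas SRSF3 had 13.

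Over the genes, the best peak by −log10 p had between 13 fragments (SRSF3) and 65 (HNRNPA2B1), with a median of 29. The lower bounds for HNRNPA2B1 and PRMT1, 50.2 and 43.2, lie above the upper bounds for the best peaks of SRSF2, SRSF3, SRSF7, HNRNPA1 and PTBP1, and not above those of PRMT5 and SRSF1. Genes next to each other in this order have overlapping intervals. The ranking of genes by fold placed PRMT1, HNRNPA2B1, PRMT5 and SRSF7 first, all above a fold of 15. The values for HNRNPA2B1 rest on its upstream peak, which position alone does not assign to HNRNPA2B1 or to CBX3. Without that peak, the best of HNRNPA2B1 had 25 fragments and a fold of 10.4.

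Multiple peaks close together were the usual form of binding here. Another peak lay within 1 kb, edge to edge, of 18 of the 21 peaks (85.7%), against 32.8% of all peaks. Joining such peaks gave 10 bound regions, of which 4 held 3 peaks, those of SRSF1, SRSF2, HNRNPA1 and HNRNPA2B1. This was 40.0% of the regions, against 3.18% of the 14488 joined regions of the whole list. In RefSeq, SRSF2, HNRNPA1 and HNRNPA2B1 each have a neighbour on the opposite strand that starts nearby. Position alone does not assign all peaks of their regions to a single gene. Regions of 2 or more peaks made up 7 of the 10, against 18.0% of the list. The shares for the list cover peaks at any location, and shares over promoter peaks alone were not computed. No summit lay within 50 bp of a start, and the nearest summit of a gene was at a median of 295 bp. Downstream summits numbered 13 and upstream summits 8. The best peak of a gene was downstream in PRMT1, PRMT5, SRSF1, SRSF2, SRSF7 and HNRNPA1, and upstream in SRSF3, HNRNPA2B1 and PTBP1.

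The expected background under these peaks was higher than in the list as a whole, with a median of 1.47 against 1.12 fragments. The highest value, 2.64, was found at 1 peak each of SRSF1 and SRSF2, on chromosome 17, and 2 peaks of PTBP1 on chromosome 19 had 1.69 and 1.98. The 9 peaks of SRSF1, SRSF2 and HNRNPA2B1, the genes on chromosomes 17 and 7, had backgrounds of 1.4 to 2.64 and a median of 1.5, against 0.75 to 1.98 and a median of 1.03 for the 12 peaks of the other 6 genes. The whole of chromosome 7 and of chromosome 17 had a median of 1.32 each, against 0.937 to 1.03 on chromosomes 2, 6, 12, 14 and 19. Genes on chromosomes 7 and 17 were set apart for this higher background, so their difference in background is not independent of the grouping. The median pileup was 25 at SRSF1, SRSF2 and HNRNPA2B1 and 23 at the other 6 genes. The median fold was 10.4 at SRSF1, SRSF2 and HNRNPA2B1 and 9.03 at the other 6. The part of the local background in these values was not tested.

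**Figure D4:**
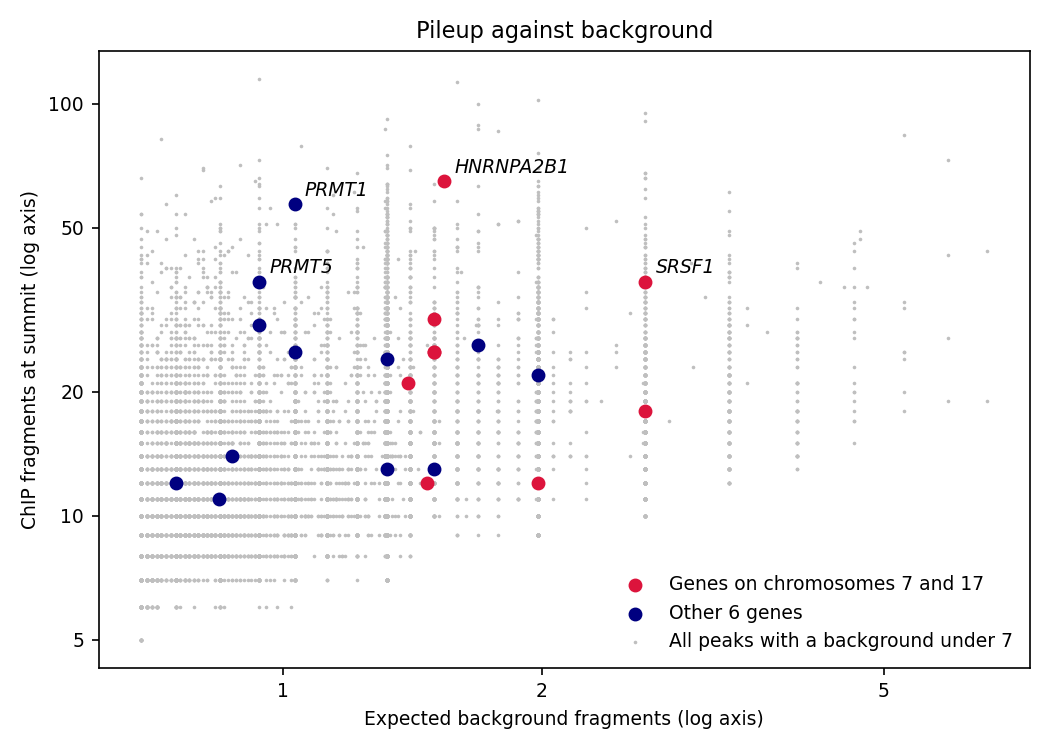
ChIP fragments at the summit against the expected background (both log axes) for the peaks of SRSF1, SRSF2 and HNRNPA2B1 (red), of the other 6 genes (blue) and for the list's peaks with a background under 7 (grey). Peaks with 37 or more fragments are named, and the red points start at a background of 1.4.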

How the data were processed

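The file used is the authors' peak list for the MYC ChIP library, in narrowPeak layout without a header. Per the submitters' processing notes, the build was GRCh37 and the tools included MACS2 2.1.0 and STAR 2.5.2a, beside Picard 2.7.1 and SAMtools 1.3. Their roles are not stated. The rule behind the authors' filter on peaks is not given in the sources used here. The deposited fold is a ratio of pileup to local background, the deposited −log10 p and −log10 q come from the peak caller, and the deposited score follows the −log10 q. The deposited columns hold no read counts, so the depth of the libraries is unknown.

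Pileup and background were recovered from each fold and −log10 p by trying every whole pileup from 3 to 699 under the caller's Poisson model. The best whole number came within 0.001 of the deposited −log10 p in 100% of peaks. The procedure was also tested on simulated data that spanned the pileups and backgrounds of the 9 genes' peaks. It was not tested up to the list's maxima, a pileup of 210 and a background of 83.8. Coordinates are GRCh37 and 1-based, and start sites are those of the selection rule. Strands came from the RefSeq promoter table for 7 genes and from general knowledge for SRSF2 and HNRNPA1. Poisson intervals are exact, at 95%, and cover counting error only, since reads without molecular identifiers may repeat 1 molecule. Overlap of intervals is given as a description and is not a test of whether pileups differ. Gene names of neighbours and promoter windows are from RefSeq, GRCh38.p14, and were not combined with peak coordinates. The named genes are all 9 genes of the selection. These genes and the other lists were chosen with earlier results of these data known. Python 3.11.15, SciPy 1.17.1 and pandas 2.3.3 were used.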

Additional observations from a re-analysis of the deposited data

How the results depend on the processing

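Each of 19 alternatives changed 1 choice. All 9 genes had a peak with a summit window of 1, 2 or 10 kb or with any base of a peak within 5 kb, and 8 did when only peaks at or above the list's median −log10 p were kept, the exception being SRSF3. Joining peaks no more than 1 kb apart lowered 21 peaks to 10 regions, by construction. The median fold was 12.8 over the best peak of each gene, which picks high values by construction, and 10.05 to 10.44 under the other settings. The median distance from the start was 0 bp when measured to the nearest peak edge, since 7 starts lay inside a peak. Counting CACGCG beside CACGTG gave 3 genes with a match, against 0 with CACGTG alone. Ranking peaks by fold in place of −log10 p, an alternative chosen after seeing the data, left the median pileup of the best peaks at 29. No paired analysis was possible because there is 1 ChIP library, so none could be omitted in turn either. The lowest pileup in the list was 5 fragments, which limits what this depth can show.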

Other observations

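Beyond the 5 kb window, the next summit was 10.3 kb away at SRSF2, with a fold of 9.46, and 12.54 kb away at PRMT1, with a fold of 10.1. At HNRNPA1 it was 50.82 kb away, at SRSF3 48.99 kb and at HNRNPA2B1 44.89 kb. Within 50 kb the number of further peaks ran from 0 at HNRNPA1 to 5 at PRMT1. The folds of these next peaks were 4.74 to 10.1.

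The peak over the start of SRSF2 and the peak 537 bp downstream of HNRNPA2B1 had the same pileup, 25, and the same background, 1.5, on 2 different chromosomes. That background also recurred at the SRSF1 peak over its start and at the SRSF3 peak. Pileups are whole numbers, so such matches can arise readily. Summed over all its peaks, HNRNPA2B1 had 102 fragments at summits and SRSF1 79, against 57 at PRMT1 with its single peak and 13 at SRSF3. Such sums grow with the number of peaks called, and the peaks covered 1619, 1257, 653 and 207 bp in these genes. The sum for HNRNPA2B1 includes the 65 fragments of the upstream peak on the side of CBX3.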
